A study of Mus musculus with 8 samples.

Results

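The genes described here are 9 of the tight junction: the claudins Cldn1, Cldn4, Cldn7, Cldn8, Cldn12 and Cldn23, occludin (Ocln), the scaffold ZO-1 (Tjp1) and cingulin (Cgn). They were taken by gene symbol from a table of normalised read counts, and all 9 are among its 32574 genes. The counts come from RNA sequencing of 8 libraries of sorted epithelial cells from mouse skin epidermis, 2 libraries in each of 4 groups. The groups pair 2 population names, K14 and Lrig1, with control or ablation. Both control groups have the genotype WT (wild type). Both ablation groups have the genotype basal lineage ablation. The sources used here do not give the strain, age, ablation agent, driver or time after ablation, nor what K14 and Lrig1 stand for, so both serve only as names of cell populations. Whether the 2 libraries of a group stem from different animals is not stated either. The p-values therefore cover only library-to-library spread, which may be technical.

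Tight junctions seal the space between neighbouring epithelial cells. Claudins are tetraspan membrane proteins that form the sealing strands, occludin is a further tetraspan protein of the strands, ZO proteins tie both to actin, and cingulin is a cytoplasmic plaque protein that binds ZO-1 and actomyosin. In skin the sealed junction lies in the granular layer, while several of its proteins are also made in the layers beneath it. Claudin-1 is needed there: mice that lack it lose water through the skin and die after birth.

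The libraries held 6458636 to 11654135 reads, and each value is a read count divided by the library's scaling factor. Every library held 28052 to 79645 normalised reads of Krt14, a basal keratin. Paired values are given in replicate order throughout. The library shares of mitochondrial reads were 6.29 and 6.89% in Lrig1 control and 2.34 to 4.14% in the others. Markers of the epidermal layers differed between groups. The 14 suprabasal and granular keratinocyte markers summed to 89871 and 85085 (control) and 95740 and 66537 (ablation) in the K14 cells, against 142449 and 158675 (control) and 43316 and 42752 (ablation) in the Lrig1 cells. Endothelial markers (11 genes) summed to 1070 and 1186 in Lrig1 control and to 82.7 to 158 in the other libraries, and hair shaft keratins (7 genes) to 657 and 1748 against 16.3 to 47.9. Myeloid markers (8 genes) summed to 223 to 1621, with the highest value in K14 ablation replicate 2. Fibroblast markers (6 genes) ranged from 85.3 to 300.1 and melanocyte markers (6 genes) from 311 to 581. The ablation replicates stood farther apart than the control replicates, with chi-square values per gene of 27.7 (K14) and 39.5 (Lrig1) under ablation, against 1.57 and 2.58 for the respective controls. Because these are bulk samples, fewer cells of a type and less RNA per cell cannot be told apart.

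The start-site sequences of Cldn4, Cldn1, Ocln and Cgn, which passed the test described further on in at least 1 comparison, are shown so that their letters can be read beside the values. Cldn23 passed too but has no entry in the promoter table, and Tjp1, which also passed, is described by its matches only. Each is the 250 bases before the transcription start in RefSeq (GRCm38.p6), 5′ to 3′ on the gene's own strand, and all 4 genes lie on the minus strand. The windows are chr5:134946935-134947184 for Cldn4, chr16:26371840-26372089 for Cldn1, chr13:100552719-100552968 for the outermost of the 2 listed starts of Ocln, and chr3:94786483-94786732 for Cgn. Capitals mark matches on either strand, none of which overlapped. The motifs searched were the AP-1 site, spelled TGANTCA, an E-box with the letters CAGGTG, the CCAAT box, the GC box with the letters GGGCGG, and the consensus of grainyhead-like (GRHL) factors, whose letters are AACNGGTT. The TATA box, as TATAAA, was searched as well.
Cldn4: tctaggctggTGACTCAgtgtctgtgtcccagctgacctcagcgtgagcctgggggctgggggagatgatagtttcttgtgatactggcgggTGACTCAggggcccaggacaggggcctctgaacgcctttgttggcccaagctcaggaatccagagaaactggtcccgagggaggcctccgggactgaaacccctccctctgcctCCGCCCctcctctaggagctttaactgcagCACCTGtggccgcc
Cldn1: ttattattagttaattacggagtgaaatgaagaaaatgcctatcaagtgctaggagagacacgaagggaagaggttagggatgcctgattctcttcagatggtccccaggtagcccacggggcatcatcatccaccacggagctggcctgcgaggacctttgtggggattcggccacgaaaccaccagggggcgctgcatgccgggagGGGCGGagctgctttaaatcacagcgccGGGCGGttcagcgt
Ocln: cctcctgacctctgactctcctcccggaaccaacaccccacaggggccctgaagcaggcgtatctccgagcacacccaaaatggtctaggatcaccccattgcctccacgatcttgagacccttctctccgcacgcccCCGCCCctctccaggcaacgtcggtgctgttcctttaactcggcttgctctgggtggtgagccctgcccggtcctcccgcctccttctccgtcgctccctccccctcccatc
Cgn: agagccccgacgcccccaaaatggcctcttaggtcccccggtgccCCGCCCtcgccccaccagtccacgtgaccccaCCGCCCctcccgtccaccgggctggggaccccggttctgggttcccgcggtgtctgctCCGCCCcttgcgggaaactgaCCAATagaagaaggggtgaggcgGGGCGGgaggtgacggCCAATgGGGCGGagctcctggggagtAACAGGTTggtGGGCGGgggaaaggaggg

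The letters of these windows differ between the genes. The Cldn4 window holds 2 AP-1 matches, with first bases at -240 and -158 from the start, and 1 E-box match at -14. AP-1 letters were in 6.75% of all 32851 windows of this length and E-box letters in 17.2%. The Ocln window holds 1 GC box match at -112, and the window of its other listed start has 2 E-box matches, at -213 and -68. Cgn holds the 1 GRHL match among the members' windows, at -29, and that motif was in 1.79% of all windows. It also holds 2 CCAAT and 6 GC box matches. CCAAT was in 33.8% of all windows. Cldn1 has 2 GC box matches, at -42 and -14, and no other. GC box letters were in 9 of the 11 windows of members, against 32.7% of all windows, with 2 matches in that of Tjp1, at -68 and -50. The 11 windows belong to 7 genes, and those of the same gene can overlap. The Cldn12 GC box at -73 in 1 window is the same site as that at -13 in another. The TATA box was in 0 of the members' windows, against 12.4%. The GC content of the members' windows was 42.0 to 70.4%, against a median of 52.4% over all. Of the 9 members 7 had an entry, all but Cldn8 and Cldn23. A match describes letters and is no evidence of binding.

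Cldn1 had the highest per-kilobase level of the claudins in all 8 libraries. The barrier claudin gene (ENSMUSG00000022512, GRCm38 chromosome 16, 26356642 to 26371841, minus strand) had 1414 and 1484 normalised reads (control) and 894 and 1291 (ablation) in the K14 cells, against 6297 and 6301 (control) and 2119 and 3849 (ablation) in the Lrig1 cells. Lrig1 control was highest, then Lrig1 ablation, then K14 control, with K14 ablation lowest, and no neighbours in this order overlapped. Per kilobase of exon, the Cldn1 level was 299 ± 10.2 in K14 control and 1301 ± 0.63 in Lrig1 control (SD, n = 2 each). Lengths are those of the merged exons in GENCODE M21.

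Cldn4, a sealing claudin, came next in all groups but Lrig1 ablation. This single-exon gene (ENSMUSG00000047501, chromosome 5, 134945119 to 134946934, minus strand) had 330 and 327 normalised reads (control) and 132 and 144 (ablation) in the K14 cells, against 879 and 791 (control) and 86.1 and 160 (ablation) in the Lrig1 cells. Both ablation groups overlapped at the bottom and lay below both control groups. Per kilobase the Cldn4 level in the controls was 181 ± 1.24 for K14 and 460 ± 34.3 for Lrig1, and after ablation 76.0 ± 4.42 for K14 and 67.8 ± 28.8 for Lrig1 (SD, n = 2 each).

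In Lrig1 ablation Cldn8 had a per-kilobase level of 72.5 ± 37.0, not apart from Cldn4 beyond their spread, and all other claudins were lower. Cldn8 (chromosome 16, 88560828 to 88563183), known as a barrier claudin of the distal nephron, was at 76.2 and 65.0 (control) and 27.6 and 86.8 (ablation) in the K14 cells, against 151 and 144 (control) and 109 and 232 (ablation) in the Lrig1 cells. Its ablation libraries were the most spread, on both sides of their controls. Cldn12 (chromosome 5, 5489537 to 5514958), a claudin that lacks the usual PDZ-binding tail, had 178 and 156 (control) and 173 and 176 (ablation) in the K14 cells, against 182 and 197 (control) and 188 and 155 (ablation) in the Lrig1 cells. It stayed between 155 and 197 throughout. Cldn23 (chromosome 8, 35824712 to 35826559) was at 6.09 and 6.89 (control) and 6.37 and 8.58 (ablation) in the K14 cells, against 41.9 and 38.1 (control) and 3.55 and 14.3 (ablation) in the Lrig1 cells, so that Lrig1 control alone stood apart. Cldn7 (chromosome 11, 69964779 to 69967885), a partner of EpCAM, had 4.06 and 5.91 (control) and 4.95 and 6.43 (ablation) in the K14 cells, against 2.33 and 0 (control) and 2.66 and 1.59 (ablation) in the Lrig1 cells. It was under the filter on low values and was not tested. The library at 0 allows up to 4.23 (3 reads).

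Of the 22 claudins in the table, the 16 that are not members reached at most 28.2 normalised reads, and 2 of them were at 0 in every library. On the per-kilobase scale Cldn1 and Cldn4 together made up 75.3 to 91.8% of the summed claudin level, and with Cldn8 and Cldn12 92.4 to 97.6%. The make-up differed between groups. Cldn1 took 51.6 and 54.3% (control) and 55.3 and 58.1% (ablation) in the K14 cells, against 66.9 and 68.1% (control) and 73.9 and 74.7% (ablation) in the Lrig1 cells. Cldn4 took 32.1 and 31.9% in K14 control and 21.8 and 17.2% in K14 ablation. In the cells labelled Lrig1 the Cldn4 share was 24.9 and 22.8% in control and 8.0 and 8.28% in ablation.

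The ratio of Cldn4 to Cldn1 normalised reads within a library does not depend on scaling between libraries. It was 0.233 and 0.220 in K14 control and 0.148 and 0.111 in K14 ablation. In Lrig1 control it was 0.140 and 0.126, and in Lrig1 ablation 0.0406 and 0.0416. In both populations the ratio was lower in each ablation library than in either control library. Cldn8 normalised reads per Cldn4 read were at 0.172 and 0.182 in Lrig1 control and at 1.27 and 1.45 in Lrig1 ablation, while in K14 they were 0.231 and 0.199 in control and 0.209 and 0.604 in ablation. Per Tjp1 read, Ocln stood at 0.234 and 0.254 (control) and 0.114 and 0.155 (ablation) in the K14 cells, against 0.318 and 0.265 (control) and 0.174 and 0.225 (ablation) in the Lrig1 cells, with each ablation group below its control. Per Cldn1 read, Ocln did not separate the groups of either population, at 0.182 and 0.195 (control) and 0.194 and 0.132 (ablation) in the K14 cells, and 0.105 and 0.0933 (control) and 0.103 and 0.0949 (ablation) in the Lrig1 cells. These ratios are given as a description, since a two-sided exact permutation test of 2 libraries against 2 cannot go below p = 0.333.

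**Figure D1:**
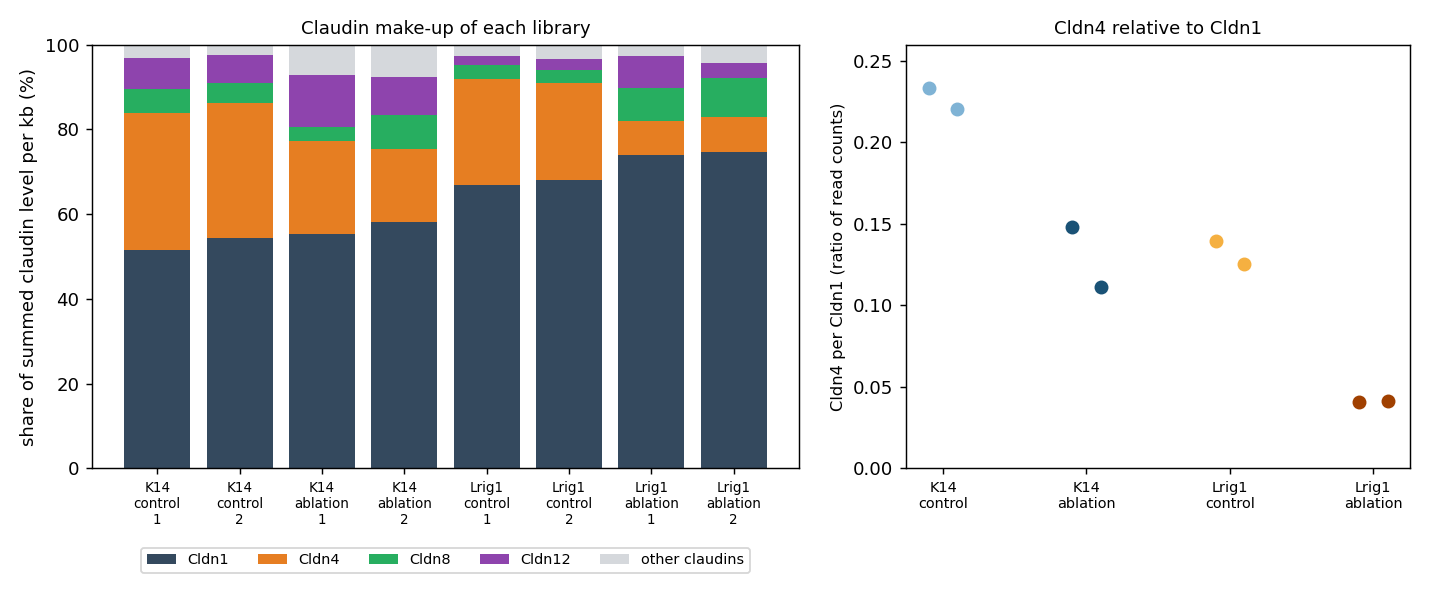
Left, the shares of Cldn1, Cldn4, Cldn8, Cldn12 and all other claudins together in the summed per-kilobase claudin level of each library (percent, stacked bars). Right, the ratio of Cldn4 to Cldn1 normalised reads, 1 point per library, falling from 0.233 and 0.220 to 0.148 and 0.111 in K14 and from 0.140 and 0.126 to 0.0406 and 0.0416 in Lrig1.

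Occludin (ENSMUSG00000021638, chromosome 13, 100496507 to 100552718, minus strand) had 258 and 289 normalised reads (control) and 173 and 170 (ablation) in the K14 cells, against 664 and 588 (control) and 218 and 365 (ablation) in the Lrig1 cells. Lrig1 control was highest and K14 ablation lowest, and the groups between them overlapped. Tjp1 (ENSMUSG00000030516, chromosome 7, 65296165 to 65527781, minus strand) had 1104 and 1139 (control) and 1523 and 1102 (ablation) in the K14 cells, against 2090 and 2220 (control) and 1251 and 1622 (ablation) in the Lrig1 cells. For Tjp1 the groups other than Lrig1 control overlapped. Cgn (ENSMUSG00000068876, chromosome 3, 94760069 to 94786492, minus strand) was at 29.5 and 39.4 (control) and 34.0 and 32.2 (ablation) in the K14 cells, against 204 and 196 (control) and 58.6 and 154 (ablation) in the Lrig1 cells. Both Lrig1 groups lay above both K14 groups. Per kilobase, Tjp1 stood at 144 ± 3.19 in K14 control, Ocln at 64.8 ± 5.28 and Cgn at 5.72 ± 1.17 (SD, n = 2 each).

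**Figure D2:**
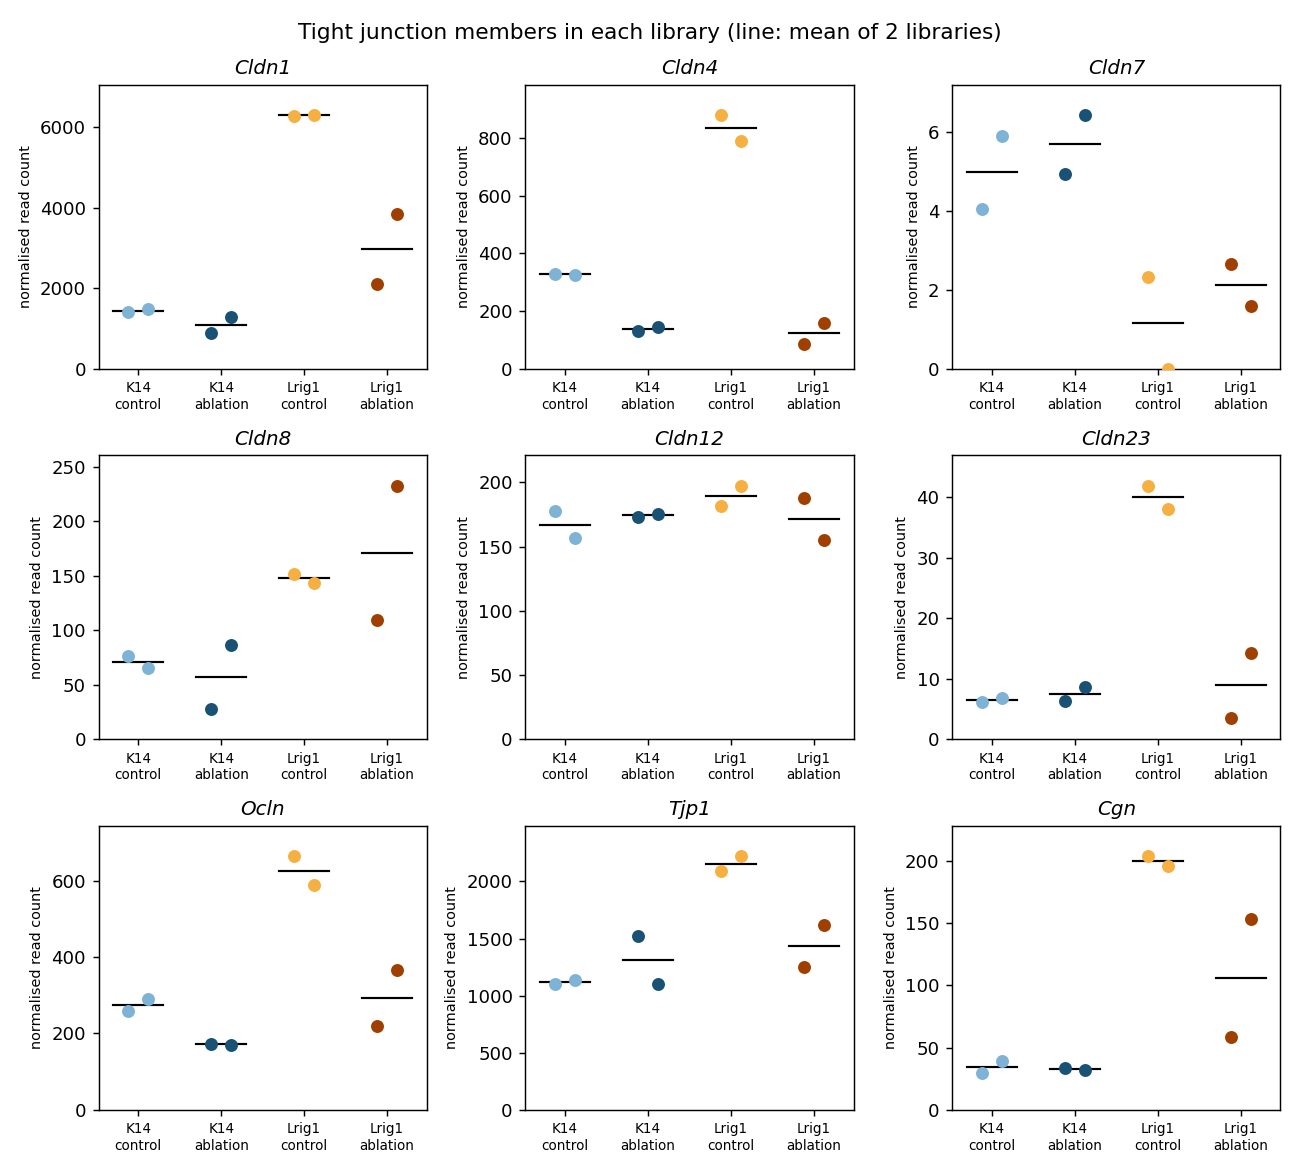
Normalised read counts of the 9 genes, 1 panel per gene with its own axis from 0, 1 point per library and a line at each group's mean. Lrig1 control stands above the other groups for Cldn1, Cldn4, Cldn23, Ocln, Tjp1 and Cgn, and Cldn12 stays between 155 and 197.

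Differences were tested with limma on log2(normalised read count + 1), in 1 fit of all 8 libraries over 18140 genes, at an adjusted p of 0.05. They are given as log2 differences with their SE, and this scale understates the change of low genes. Of the members 8 were tested.

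Without ablation, transcripts of Cldn1, Cldn4, Cldn23, Ocln, Tjp1 and Cgn were more abundant in the cells labelled Lrig1 than in those labelled K14. Both Lrig1 control libraries were above both K14 control libraries for 8 of the 8 tested members, as for 34.5% of all tested genes. By the test 6 of the 8 were higher and 0 lower, where 6.52% of all tested genes were higher and 2.27% lower. The members' median log2 difference was 1.27, against 0.00 for all tested genes. Cldn1 was 4.35-fold higher by the group means, with a log2 difference of 2.12 ± 0.28 (limma adjusted p = 0.00594). Cldn4 was higher by 1.34 ± 0.27 (limma adjusted p = 0.0213) and Cldn23 by 2.45 ± 0.59 (0.0416). The strand protein gene Ocln was higher by 1.19 ± 0.24 (limma adjusted p = 0.0215). Among the plaque genes, Tjp1 was higher by 0.94 ± 0.19 (limma adjusted p = 0.0245) and Cgn by 2.52 ± 0.41 (0.0118). Cldn8 was at 1.06 ± 0.52 (limma adjusted p = 0.26, 95% interval -0.14 to 2.26) and Cldn12 at 0.18 ± 0.18 (0.597, -0.23 to 0.59). With the control libraries alone in the fit Cldn8 passed as higher (limma adjusted p = 5.7e-05), and with no filter on low values the Cldn23 call was lost (0.0694). Leaving out any one of the control libraries, K14 or Lrig1, ended all 6 calls. The lowest adjusted p then was 0.0654 (Cldn1, without K14 control replicate 2) and the highest among the 6 was 0.24 (Cldn23, without K14 control replicate 1), while the Cldn1 difference stayed at 2.08 to 2.16 over all left-out libraries. Suprabasal markers were also higher in Lrig1 control, 8 of 14 by the same test, and so were 9 of 11 endothelial markers (with Kdr at 0 in both K14 control libraries), 7 of 7 hair shaft, 4 of 8 myeloid and 3 of 5 tested fibroblast markers. Of the 8 basal keratinocyte markers 1 was higher by this test (Krt15) and 0 lower. Their median log2 difference was -0.89, with 7 negative and 1 positive. They summed to 218224 and 215225 in K14 control and to 125786 and 136421 in Lrig1 control. The mitochondrial share was highest in the Lrig1 control libraries. The part of any of these in the members' differences was not tested.

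After ablation Cldn4 and Ocln were lower in the Lrig1 population. Of the 8 tested members 2 fell and 0 rose, where 3.3% of all tested genes fell and 0.766% rose. The members' median log2 difference was -1.10, against -0.02 for all tested genes. Cldn4 fell from 835 ± 62.3 to 123 ± 52.3 normalised reads (SD, n = 2 each), 6.79-fold by the means, with a log2 difference of -2.82 ± 0.27 (limma adjusted p = 0.00254). Ocln fell from 626 ± 53.6 to 292 ± 104, by 1.14 ± 0.24 on the log2 scale (limma adjusted p = 0.0398). Both ablation libraries were below both control libraries for 6 of the 8, and 26.4% of all tested genes showed this. The others of these 6 did not pass: Cldn1 was at -1.14 ± 0.28 (limma adjusted p = 0.0655), Cldn23 at -2.29 ± 0.59 (0.0749), Tjp1 at -0.60 ± 0.19 (0.136) and Cgn at -1.06 ± 0.41 (0.201). Cldn1 passed with DESeq2 (-1.06, adjusted p = 0.00681) and Cldn23 with a pseudocount of 5 (-1.81, limma adjusted p = 0.0474). Cldn8 was at 0.11 ± 0.52 (95% interval -1.09 to 1.31) and Cldn12 at -0.15 ± 0.18 (-0.56 to 0.26).

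Single libraries decided several of these calls. The Cldn4 call was lost without Lrig1 control replicate 1 (limma adjusted p = 0.0666) or replicate 2 (0.0707). The Ocln call was lost without those libraries (0.278 and 0.252) and without K14 control replicate 1 (0.102) or replicate 2 (0.104). It was also lost with edgeR (0.0554), without a filter on low values (0.0538), with a replicate block (0.0526) and with the Lrig1 libraries alone (0.125). In Lrig1 ablation replicate 2 Cldn1, Cldn4, Cldn8, Cldn23, Ocln, Tjp1 and Cgn were higher than in replicate 1, and Cldn12 was lower. Without replicate 2 the log2 difference was -1.57 for Cldn1, -3.17 for Cldn23, -0.78 for Tjp1, -1.75 for Cgn and -0.43 for Cldn8. Suprabasal markers moved with these genes: 10 of 14 fell, with a median log2 difference of -2.03, and 0 of the 14 were at 0 in both libraries of any group. Endothelial markers fell too, 7 of 11, with Sele at 0 in both Lrig1 ablation libraries, and so did 5 of 7 hair shaft and 2 of 8 myeloid markers. The mitochondrial share was 3.14 and 4.14% in Lrig1 ablation, against 6.29 and 6.89% in its control. Of the 8 basal keratinocyte markers 0 passed by limma, with 2 at an unadjusted p under 0.05, while 0 passed by edgeR and 2 by DESeq2. Their median log2 difference was 0.46, with 8 positive and 0 negative. They summed to 125786 and 136421 in Lrig1 control and to 246680 and 116262 in Lrig1 ablation. The part of these cell types in the members' fall was not tested.

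In the K14 population 0 of the 8 tested members passed on ablation (limma, with 2 at an unadjusted p under 0.05; 0 by edgeR and 1 by DESeq2), where 0.187% of all tested genes passed and 12.8% had an unadjusted p under 0.05. Cldn4 had the lowest p, going from 328 ± 2.26 to 138 ± 8.02 normalised reads (SD, n = 2 each), a log2 difference of -1.25 ± 0.27 (limma adjusted p = 0.153, unadjusted p = 0.0015). Among the 8 tested members, both K14 ablation libraries were below both controls for Cldn1, Cldn4 and Ocln, where 25.7% of all tested genes showed this. DESeq2 put the Cldn4 adjusted p at 0.00571. Ocln was at -0.67 ± 0.24 (limma adjusted p = 0.32) and Cldn1 at -0.43 ± 0.28 (0.555). Tjp1 was at 0.21 ± 0.19, Cldn12 at 0.07 ± 0.18, Cldn23 at 0.17 ± 0.59, Cgn at -0.04 ± 0.41 and Cldn8 at -0.51 ± 0.52. Of the 14 suprabasal and granular markers 0 passed by limma, with 7 at an unadjusted p under 0.05. Their median log2 difference was -0.53, with 11 negative and 3 positive. Krt1, a large part of their sum, went from 15925 and 15135 to 42464 and 24209 normalised reads. The part of suprabasal cells in the members' values was not tested. Both Cldn4 (adjusted p = 0.0076 and 0.00786) and Ocln (0.0376 in each case) passed as lower when Lrig1 ablation replicate 1 or replicate 2 was left out of the fit, although neither library belongs to this comparison.

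The K14 ablation libraries disagreed on Cldn8, at 27.6 and 86.8 normalised reads. The log2 difference was 0.30 without K14 ablation replicate 1 and -1.32 without replicate 2. The 8 sebaceous gland markers summed to 5706 and 21476 in the same libraries, against 15545 and 15708 in K14 control. In Lrig1 control, where Cldn8 was at 151 and 144, they summed to 10740 and 10564. In Lrig1 ablation, where Cldn8 was at 109 and 232, they summed to 10320 and 7368. The part of sebaceous gland cells in the Cldn8 values was not tested.

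The difference between the ablation effects was tested as an interaction, Lrig1 minus K14. Of the 8 members 0 passed (limma, with 3 at an unadjusted p under 0.05; 0 by edgeR and 1 by DESeq2), where 0.198% of all tested genes did and 15.0% had an unadjusted p under 0.05. The Cldn4 interaction was -1.57 ± 0.38 (limma adjusted p = 0.126; DESeq2 adjusted p = 0.0339), with a 95% interval of -2.44 to -0.71 before adjustment. It passed without Lrig1 ablation replicate 1 (adjusted p = 0.019, at -1.13) or replicate 2 (0.00915, at -2.01). Cldn23 was at -2.46 ± 0.84 (0.241) and Tjp1 at -0.80 ± 0.27 (0.242), and Cldn23 passed without Lrig1 ablation replicate 2 (0.0395, at -3.34).

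After ablation the populations were compared with each other. Of the 8 members 0 passed (limma, with 4 at an unadjusted p under 0.05; 0 by edgeR and 3 by DESeq2), where 0.667% of all tested genes did and 16.4% had an unadjusted p under 0.05. Cldn1 was at a log2 difference of 1.41 ± 0.28 (limma adjusted p = 0.0789), Cldn8 at 1.68 ± 0.52 (0.193), Cgn at 1.5 ± 0.41 (0.161) and Ocln at 0.71 ± 0.24 (0.215). Cldn4, which differed between the control groups, was at -0.23 ± 0.27 (0.683, 95% interval -0.84 to 0.38). Without Lrig1 ablation replicate 1 the first 4 passed as higher, with limma adjusted p of 0.00283 for Cldn1, 0.0359 for Cldn8, 0.00336 for Cgn and 0.0047 for Ocln. Cldn8 also passed without K14 ablation replicate 2 (0.0463).

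**Figure D3:**
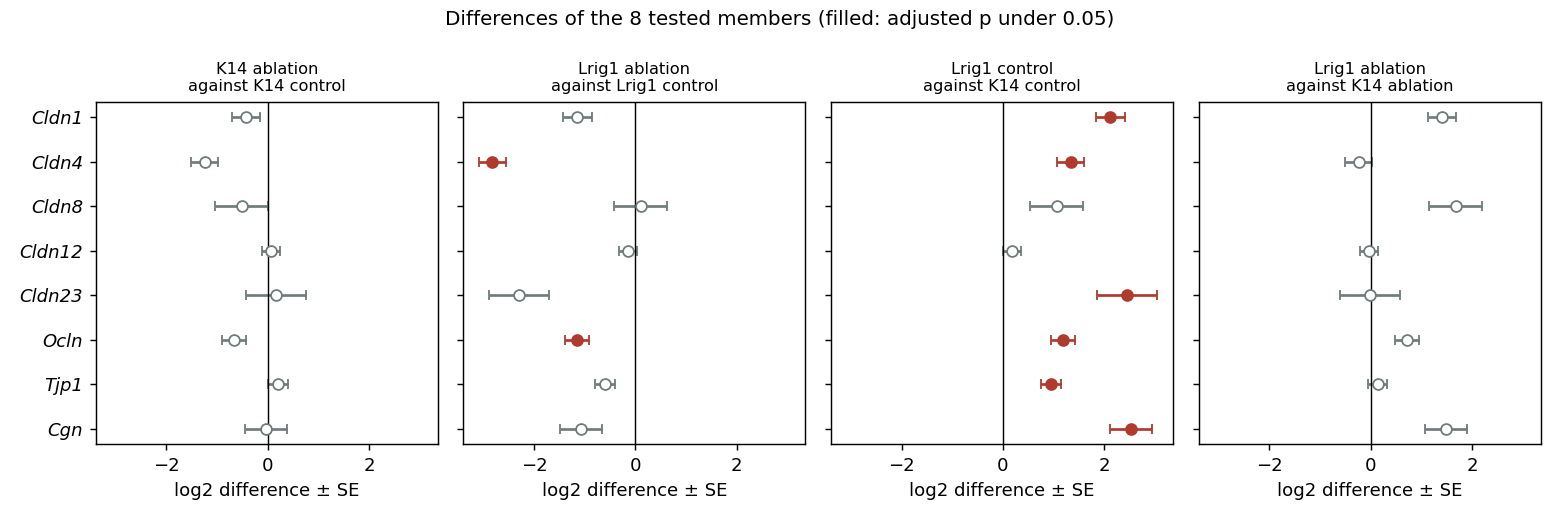
Log2 differences with their SE (bars) for the 8 tested members in 4 comparisons, where filled points passed an adjusted p of 0.05. The Lrig1 control against K14 control panel has 6 filled points, the Lrig1 ablation panel 2 (Cldn4 and Ocln), and the other panels 0.

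Other genes of the junction were read from lists of 61 genes in the table, of which 45 passed the filter on low values. In Lrig1 ablation 2 of the 45 rose and 5 fell, with a median log2 difference of -0.17 against -0.02 for all tested genes, of which 0.766% rose and 3.3% fell. Comparing the controls, 9 of the 45 were higher in Lrig1 and 2 lower, where 6.52% of all tested genes were higher and 2.27% lower. The median log2 difference there was 0.17 against 0.00 for all tested genes. In K14 ablation 1 of the 45 fell, where 0.187% of all tested genes passed in either direction. Between the ablation groups 0 passed (limma, with 10 at an unadjusted p under 0.05; 0 by edgeR and 4 by DESeq2), where 0.667% of all tested genes passed and 16.4% had an unadjusted p under 0.05. Without either Lrig1 control library 0 of the 45 passed in the Lrig1 ablation or the control comparison, and without K14 control replicate 1 or replicate 2 the latter had 1 and 0 calls.

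Among the membrane proteins, the angulin genes, which mark tricellular contacts, were higher in Lrig1 control: Lsr by 1.19 ± 0.14 (limma adjusted p = 0.00482) and Ildr1 by 3.95 ± 0.54 (0.0063). Epcam, which binds claudin-7, was at 346 and 354 normalised reads in K14 control and 1908 and 1930 in Lrig1 control, higher by 2.45 ± 0.31 (0.00484). Cldn5, the claudin of blood vessels, passed as higher in Lrig1 control, at 17.5 and 28.2 against 1.02 and 0, and so did Cldn3, at 10.5 and 16.9 against 1.02 and 0. In K14 control these claudins rest on 1 read each, so no fold is given, and the Cldn3 call was lost with DESeq2 (adjusted p = 0.0952). Cldn5 is itself among the 11 endothelial markers, and is counted in the 9 of them that were higher in Lrig1 control. The part of endothelial cells in its level was not tested.

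The scaffold genes did not move as one. The ZO-3 gene Tjp3 fell in Lrig1 ablation by 1.46 ± 0.24 (limma adjusted p = 0.0188). Mpdz, a scaffold with many PDZ domains, rose by 1.52 ± 0.17 (0.00531), from 139 and 162 to 454 and 410 normalised reads. In K14 control it was at 313 and 337. Wnk4, a kinase that acts on claudins, rose by 1.93 ± 0.38 (0.0326), from 10.5 and 7.05 to 28.4 and 44.6. Pard3b, a PAR-3 family polarity gene, fell in K14 ablation from 300 and 266 to 63.0 and 86.8, by 1.92 ± 0.23 (0.0305), and was at -0.05 ± 0.23 in Lrig1 ablation. Mpdz and Pard3b were also the genes lower in Lrig1 control than in K14 control, by 1.11 ± 0.17 (0.00956) and 1.09 ± 0.23 (0.0263), and Tjp3 was higher there by 0.96 ± 0.24 (0.047). The Tjp3 and Wnk4 calls in Lrig1 ablation were also lost without either K14 control library (limma adjusted p of 0.0616 to 0.0937) and with the compared groups alone (0.0655 for Tjp3 and 0.129 for Wnk4). Wnk4 was also lost with a replicate block (0.0558) and with no filter (0.0553). Between the controls the Tjp3 call was lost with a replicate block (0.0556), edgeR (0.0527) or no filter (0.0645). The Pard3b call in K14 ablation was lost without either K14 control library (0.522 and 0.317), without either Lrig1 control library (0.147 and 0.143), without K14 ablation replicate 1 (0.0716) or with the K14 libraries alone (0.0723).

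Of the 8 tested regulators 4 fell in Lrig1 ablation, where 3.3% of all tested genes fell. Grhl3, a grainyhead-like activator of barrier genes, fell by 1.87 ± 0.26 (limma adjusted p = 0.0115), from 841 and 806 to 170 and 299 normalised reads. Grhl1 fell by 1.28 ± 0.28 (0.0483), Ovol1, a repressor tied to terminal differentiation, by 2.01 ± 0.23 (0.0057), and Klf4, a barrier transcription factor, by 0.95 ± 0.20 (0.0381). Grhl2 stayed between 1115 and 1304 in all 8 libraries. In K14 ablation 0 of these 8 passed by limma, 0 by edgeR and 1 by DESeq2. By limma 4 had an unadjusted p under 0.05, where 12.8% of all tested genes did. Of these 4, Klf4 was at -0.86 ± 0.20 (limma adjusted p = 0.169) and Ovol1 at -0.82 ± 0.23 (0.235). The other 2 were positive, with Snai2 at 0.62 ± 0.17 (0.23) and Zeb2 at 2.075 ± 0.64 (0.269). Without either K14 control library the Grhl1 and Klf4 calls were lost (limma adjusted p of 0.115 to 0.117). The Grhl1 call was also lost without either K14 ablation library (0.0523 and 0.0534), and with a pseudocount of 0.5 (0.0501). Both the Grhl1 and the Klf4 call were lost with edgeR (0.071 and 0.0514), TMM scaling (0.0509 and 0.0502), a replicate block (0.0581 and 0.0542), no filter (0.0656 and 0.0565) and the compared groups alone (0.146 and 0.0948). The Grhl3 call was lost with the compared groups alone (0.054). In the same libraries 10 of 14 suprabasal markers fell, and their part in the fall of the regulators and of the scaffold genes was not tested. Between the controls, Grhl3 passed as higher in Lrig1 control, by 1.25 ± 0.26 (limma adjusted p = 0.0247). Zeb1 and Zeb2, repressors of epithelial junction genes, also passed as higher there. Zeb1 was at 22.1 and 24.0 against 1.02 and 0.985, and Zeb2 at 39.6 and 53.6 against 2.03 and 4.92. Suprabasal, endothelial, myeloid and fibroblast markers were higher in the same libraries, and their part in the Grhl3 and Zeb values was not tested.

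**Figure D4:**
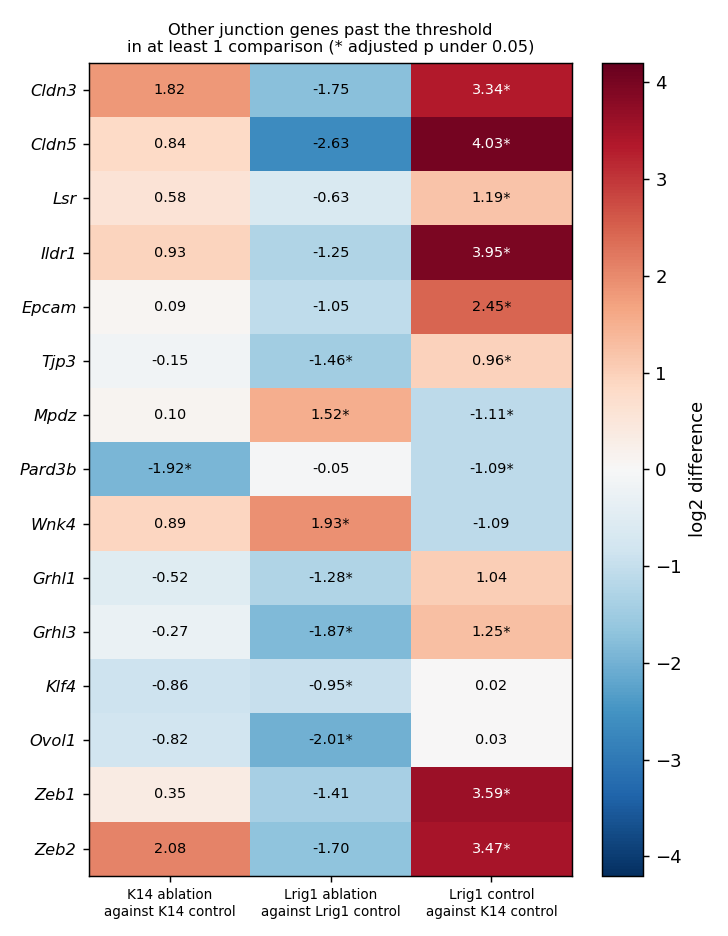
Log2 differences of the other junction genes that passed in at least 1 comparison, in 3 comparisons (columns), with an asterisk where the adjusted p was under 0.05. Mpdz and Wnk4 rise in Lrig1 ablation (1.52 and 1.93), opposite to Tjp3, Grhl3 and Ovol1, and the Cldn3, Cldn5 and Zeb1 values against K14 control rest on 0 or 1 read a library there.

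The genes most like each member that passed in at least 1 comparison were ranked by Pearson's r of log2 values over the 8 libraries. These fall into 4 groups and share 1 scaling, and the ranking carries no test. For Cldn1 they were Pfn2 (0.998), Slc46a2 (0.997) and Myo5b (0.996). For Cldn4 they were Atp6v0a1 (0.988), Mkrn2 (0.988) and Wdfy2 (0.988). For Cldn23 they were Stap2 (0.996), Ube2h (0.992) and Slc39a2 (0.988). Those of Ocln were Tom1l2 (0.994), the mucin gene Muc15 (0.989) and Eif4enif1 (0.989). Tjp1 was most like Klhl18 (0.994), the receptor gene Erbb3 (0.993) and Ablim1 (0.986), and Cgn like Pde2a (0.994), Ttc39c (0.993) and the protocadherin gene Pcdh1 (0.99). No gene appeared on more than 1 of these lists.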

How the data were processed

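The 8 polyA RNA libraries came from FACS-isolated epithelial cells of mouse epidermis. Per the submitters' processing notes, Trimmomatic, STAR, Picard and HTSeq 0.11.1 were used with GRCm38. The authors deposited 1 table of normalised read counts (a scaled signal): 100% of values are whole reads after division by the library's factor (tolerance 0.001). Of its columns, 4 ablation columns carry other names than the samples and were matched to their group only. Of 32574 gene identifiers 32427 were in GENCODE M21, used for positions and exon lengths.

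Genes with at least 1e-06 of the library total in 2 or more libraries (18140) were tested with limma 3.58.1 (R 4.3.3, variance trend) on log2(value + 1), 4 group means in 1 fit with 4 residual degrees of freedom, with Benjamini-Hochberg adjustment over all of them. On simulated data with the same spread in all groups, the fit recovered large known changes. The real ablation replicates stood farther apart than the controls, so this does not show how the fit fares at their spread. Alternatives used pseudocounts of 0.5 and 5, no filter, TMM scaling, edgeR 4.0.16 and DESeq2 1.42.0 on the recovered reads, a replicate block, the compared groups alone, and each library left out. Named were all members, other junction genes past the threshold, and the 3 most similar genes of each member that passed. Members, lists and motifs were chosen with earlier results of these data known. Some items of the junction lists are not reported here.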

Additional observations from a re-analysis of the deposited data

How the results depend on the processing

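With 2 libraries a group, the calls rest on few degrees of freedom. Over the 59 differences of single genes, 767 of 931 values under the alternatives kept their direction and side of the threshold, 124 no longer passed, 24 newly passed and 16 changed sign. The 59 are all differences of the tested members, passing or not, and those of the other junction genes that passed. Only differences that passed can be among the 124, while the 767 include differences that did not pass under either setting. The 767 therefore do not measure how steady the calls are. All tested genes called in K14 ablation numbered 34, and 220 with DESeq2, 21 with a replicate block, 0 with the compared groups alone and 0 to 740 with 1 library left out. In Lrig1 ablation they numbered 737, 170 with the compared groups alone and 5 to 2498 with 1 library left out. Between the controls they numbered 1594, 7323 with the compared groups alone and 1 to 3539 with 1 library left out. Between the ablation groups they numbered 121, 75 with no filter, 664 with DESeq2, 0 with the compared groups alone and 0 to 4041 with 1 library left out. The interaction called 36, and 83 with a pseudocount of 5, 5 with no filter, 308 with DESeq2, 1 with a replicate block and 0 to 2022 with 1 library left out.

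Members called in K14 ablation were 0, 1 with DESeq2 and 0 to 2 with 1 library left out. In Lrig1 ablation they were 2, 1 with no filter, edgeR, a replicate block or the compared groups alone, and 0 to 6 with 1 library left out. Between the controls they were 6, and 0 to 6 with 1 library left out. Between the ablation groups they were 0, 3 with DESeq2 and 0 to 4 with 1 library left out. In the interaction they were 0, 1 with DESeq2 and 0 to 2 with 1 library left out. The cause of these shifts was not tested.

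Changes of sign concerned differences that did not pass. Between the ablation groups Cldn23 was at -0.01, at 0.049 with a pseudocount of 5, 0.31 with edgeR and 0.30 with DESeq2. With 1 library left out, K14 ablation gave -1.32 to 0.30 for Cldn8, -0.026 to 0.16 for Cldn12, -0.022 to 0.36 for Cldn23, -0.025 to 0.44 for Tjp1 and -0.25 to 0.16 for Cgn. Lrig1 ablation gave -0.43 to 0.65 for Cldn8. Between the ablation groups the ranges were -0.67 to 0.21 for Cldn4, -0.17 to 0.11 for Cldn12, -0.88 to 0.87 for Cldn23 and -0.10 to 0.37 for Tjp1. The Cldn8 interaction ranged from -0.19 to 1.43. Libraries with the same replicate number did not deviate together (correlations of 0.0838 and 0.0277 within K14 and Lrig1), so the block rests on a shared number only.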
